A study of Canis lupus familiaris with 26 samples.

Results

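The genes described here are 10 contractile and cytoskeletal genes of the canine corpus luteum (CL), out of 19856 genes counted in each library. They are the actins ACTA2, ACTG2 and ACTA1, calponin 1 (CNN1), the myosin light chain MYL9, filamin A (FLNA), desmin (DES), lamin A/C (LMNA), plectin (PLEC) and the tubulin TUBB6. They were chosen because their read counts were higher after 5 days of treatment, so the values of day 5 are a description of that choice, carry no test and support nothing. That rule names day 5 alone, and earlier results for the other days were known when it was set.

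In smooth muscle, filaments of actin slide along myosin when the myosin light chain is phosphorylated, and calponin binds the thin filament and restrains the myosin ATPase. Filamin crosslinks actin into networks, desmin intermediate filaments tie the contractile units together, plectin links the filament systems to each other, and lamins form the meshwork beneath the nuclear envelope. ACTA2, CNN1, DES and MYL9 are known from vascular smooth muscle and other contractile cells, while LMNA, PLEC, FLNA and TUBB6 are broadly expressed. The CL is a transient gland that forms from the ovulated follicle, is heavily vascularised and secretes progesterone.

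Poly(A)-selected RNA of CL from bitches of mixed breed and various ages was sequenced in 26 samples, 13 from control and 13 from treated animals. Treated dogs received firocoxib, an oral inhibitor of the prostaglandin-producing enzyme COX2, at 10 mg/kg each day from ovulation (day 0, when progesterone passed 5 ng/ml) until surgery on day 5, 10, 20 or 30. Controls were collected on the same days. They are described as placebo-treated in the sample labels and as untreated in the series' design text. There were 4 control and 4 treated samples on day 5, and 3 of each on days 10, 20 and 30, all from spontaneous cycles. Some libraries were set aside as outliers by the study and were not analysed here. The CL was trimmed free of surrounding tissue and used whole, so each value is an average over all its cell types, and a smaller number of cells of a type cannot be told apart from less RNA per cell.

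Library totals ran from 12831896 to 22658950 counted reads, with a median of 17909942. Counts below are given as CPM (reads scaled to a common library size), scaled with TMM factors over all samples, which removes differences in depth but not in gene length, so levels are compared between samples and not between genes. Samples carry the replicate numbers of the labels. ACTA1 was near the limit of detection and reached no more than 68 reads in a library. The muscle actins are close relatives, and reads shared among ACTA2, ACTG2 and ACTA1 could be assigned to one another or left out, which was not tested.

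On day 5, 9 of the 10 genes were higher in every treated sample than in every control sample, the pattern for which they were chosen, and 5.16% of all 13651 genes tested showed it. The median log2 fold change of the 10 genes was 1.80, against 0.03 over all genes, and their range was 1.41 to 3.41. The thin-filament actin of smooth muscle, ACTA2, stood at 71.8, 53.4, 70.8 and 65.0 CPM in control replicates 1, 3, 4 and 5. In treated replicates 1, 2, 4 and 5 it stood at 272, 292, 543 and 130 CPM. All 4 treated samples lay above the controls, but replicate 5 was much closer to them than replicate 4 (log2 fold change 2.23, SE 0.41). ACTG2, the actin of enteric smooth muscle, stood at 35.7 to 68.5 CPM in controls and at 197, 638, 745 and 111 CPM in the treated samples (3.05, SE 0.58). CNN1, the calponin of differentiated smooth muscle, had the widest treated range as a ratio of highest to lowest sample (16.01), with 48.2, 65.6, 141 and 8.84 CPM against 4.33 to 7.45 CPM in controls (3.41, SE 0.68). Treated replicate 5 was only just above the highest control for CNN1.

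MYL9, the regulatory light chain of smooth muscle myosin, overlapped between the groups, with treated samples at 630, 426, 756 and 285 CPM and control replicate 1 at 309 CPM (1.42, SE 0.39). FLNA, the actin crosslinker, lay between 463 and 1098 CPM in treated samples and between 131 and 298 CPM in controls (1.88, SE 0.37). DES, the muscle intermediate filament, lay between 100 and 203 CPM against 29.9 to 57.7 CPM (1.72, SE 0.33). The spread among treated samples thus differed between genes: treated replicate 5, lowest for CNN1, was the second highest for DES at 161 CPM. LMNA, a component of the nuclear lamina, gave a log2 fold change of 1.41 (SE 0.29), and PLEC, the cytolinker, of 1.56 (SE 0.34). TUBB6, a β-tubulin of microtubules, gave 1.52 (SE 0.33) and was highest in treated replicate 5 at 69.6 CPM. ACTA1, the skeletal muscle actin, lay between 1.34 and 2.91 CPM in treated samples and at 0.503 CPM or less in controls (2.61, SE 0.81), and it met the read minimum through its treated samples alone. Across the 10 genes, treated replicate 4 was highest for 6 and replicate 5 was lowest for 6.

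**Figure D1:**
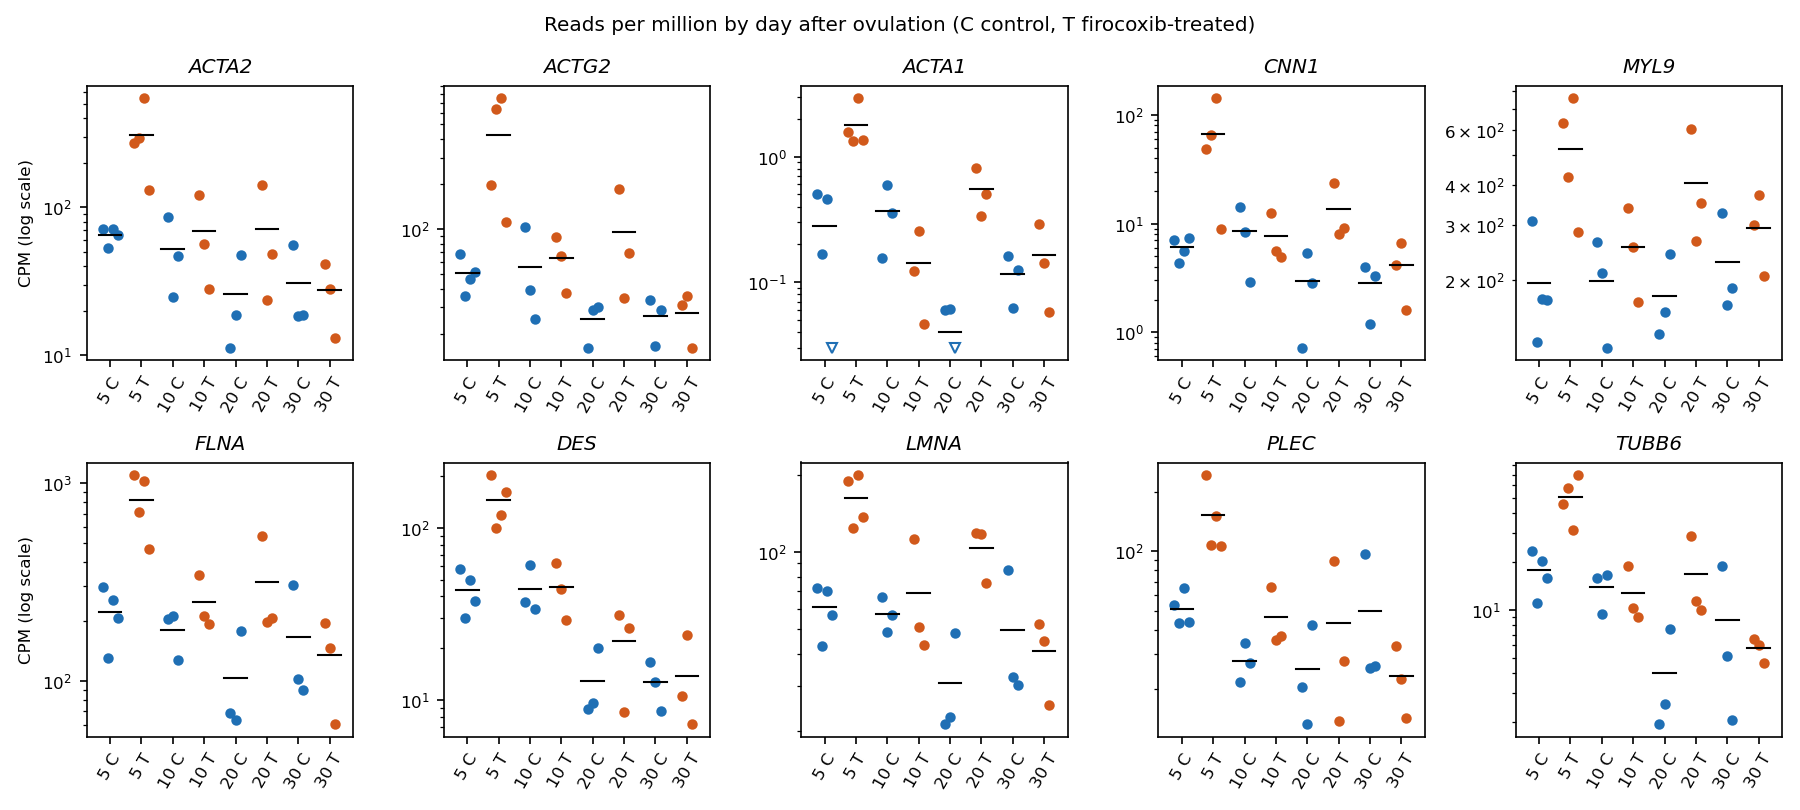
CPM (log axis) of each gene by day and treatment, with each point 1 sample, blue for controls (C), orange for treated samples (T), black lines for group means and open triangles for samples with 0 reads of ACTA1. On day 5 the treated points lie above the controls for all genes but MYL9, the pattern for which the genes were chosen. On day 20 they do so for 7 of the 10 genes, against 16.1% of all genes. The 7 include ACTA1, which met the read minimum of that day through its treated samples alone.

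On day 10, whether treatment left a difference between the groups was tested with edgeR on all genes, with a call at P under 0.01 and a false discovery rate (FDR) under 0.1. None of the 9 genes with enough reads passed, and 0% of all 13416 genes did. No gene of the 9 reached an unadjusted P under 0.05 either, compared with 0.373% of all genes higher and 0.529% lower. DESeq2, a second count model, also called none of them, and it called 0% of all genes higher and 0% lower. PLEC stood at 65.9, 35.4 and 37.1 CPM in treated replicates 1, 4 and 5 and at 21.8, 34.2 and 27.1 CPM in control replicates 2, 3 and 4. All treated samples were thus above all controls, as they were for 2.08% of genes, but the nearest values were 35.4 and 34.2 CPM (log2 fold change 0.74, SE 0.38, edgeR P 0.0837). FLNA stood at 344, 212 and 193 CPM against 204, 213 and 127 CPM, so the groups overlapped (0.47, SE 0.37). The remaining 7 genes tested differed by less than their standard error, and the median of the 9 was 0.27 against 0.02 over all genes. ACTA1 was not tested, with 7 reads in treated and 21 reads in control samples summed, a ratio of 0.323 with a 95% exact interval of 0.116 to 0.789 that covers counting error only. Treated replicate 1 was the highest treated sample for 9 of the 10 genes.

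On day 20 ACTA1 met the read minimum through its treated samples alone, so a difference was built into its test, and the counts here are over the other 9 genes. All 9 had a log2 fold change above 0, as 54.3% of all 13726 genes did, and none passed the edgeR thresholds, which 0.102% of all genes did. At an unadjusted P under 0.05, 6 of the 9 were higher, where 11.7% of all genes were. The same 6, ACTG2, CNN1, FLNA, LMNA, MYL9 and TUBB6, had every treated sample above every control, against 16.1% of all genes. The median log2 fold change of the 9 was 1.62, against 0.11 over all genes. DESeq2 at the same thresholds called 4 of the 9, ACTG2, CNN1, LMNA and TUBB6, against 7.15% of all genes higher.

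Among the thin-filament actins, ACTG2 stood at 185, 34.7 and 68.8 CPM in treated replicates 2, 3 and 4 and at 16.1, 28.9 and 30.2 CPM in control replicates 1, 2 and 3. The groups did not overlap, but treated replicate 3 was close to the highest control (1.95, SE 0.63, edgeR FDR 0.202). ACTA2 stood at 142, 23.6 and 48.6 CPM against 11.2, 18.8 and 47.3 CPM, and treated replicate 3 lay among the controls (1.47, SE 0.76, FDR 0.352). ACTA1 had 32 reads in treated and 2 reads in control samples summed, a ratio of 14.1 with an exact 95% interval of 3.59 to 121 for counting error only. Its treated samples stood at 0.807, 0.337 and 0.506 CPM, and the controls at 0.0601, 0.0609 and 0 CPM. Its fitted fold change (3.63, FDR 0.178) depends on the prior count and is no bound, and 3 reads in the control at 0 would be 0.158 CPM.

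Of the thin-filament regulator and the motor, CNN1 stood at 23.7, 7.99 and 9.16 CPM in treated samples and at 0.721, 5.42 and 2.84 CPM in controls. The treated samples were all higher, by least in replicate 3 (2.21, SE 0.76, FDR 0.220). MYL9 stood at 603, 267 and 350 CPM against 135, 158 and 242 CPM (1.21, SE 0.47, FDR 0.259). The crosslinker FLNA stood at 538, 197 and 208 CPM against 68.6, 63.3 and 178 CPM, separated by a small gap between treated replicate 3 and control replicate 3 (1.62, SE 0.62, FDR 0.250).

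LMNA had the smallest FDR of the 10 genes. Its treated samples stood at 119, 117 and 75.4 CPM and its controls at 21.2, 22.6 and 48 CPM, with no overlap (1.79, SE 0.47, FDR 0.167). TUBB6 stood at 29.0, 11.4 and 9.92 CPM against 1.92, 2.56 and 7.53 CPM (2.07, SE 0.68, FDR 0.202). The filament gene DES overlapped between the groups, with 31.0, 8.52 and 26.2 CPM against 8.83, 9.62 and 20.2 CPM (0.78, SE 0.58, FDR 0.488). PLEC overlapped too, with 89.0, 13.8 and 27.7 CPM against 20.5, 13.3 and 42.2 CPM (0.79, SE 0.72, FDR 0.572). Treated replicate 2 was highest for all 10 genes, and control replicate 3 was the highest control for 8. Without treated replicate 2, PLEC was lower in treated samples (log2 fold change -0.26) and LMNA passed with edgeR (1.70, FDR 0.0598). The same omission left ACTA2 at 0.51, DES at 0.45, ACTG2 at 1.07, FLNA at 1.01, MYL9 at 0.82, CNN1 at 1.55 and TUBB6 at 1.45. Without control replicate 3, ACTA2 was at 2.30, DES at 1.29 and PLEC at 1.42, and without treated replicate 3 PLEC was at 1.20, none of which passed.

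**Figure D2:**
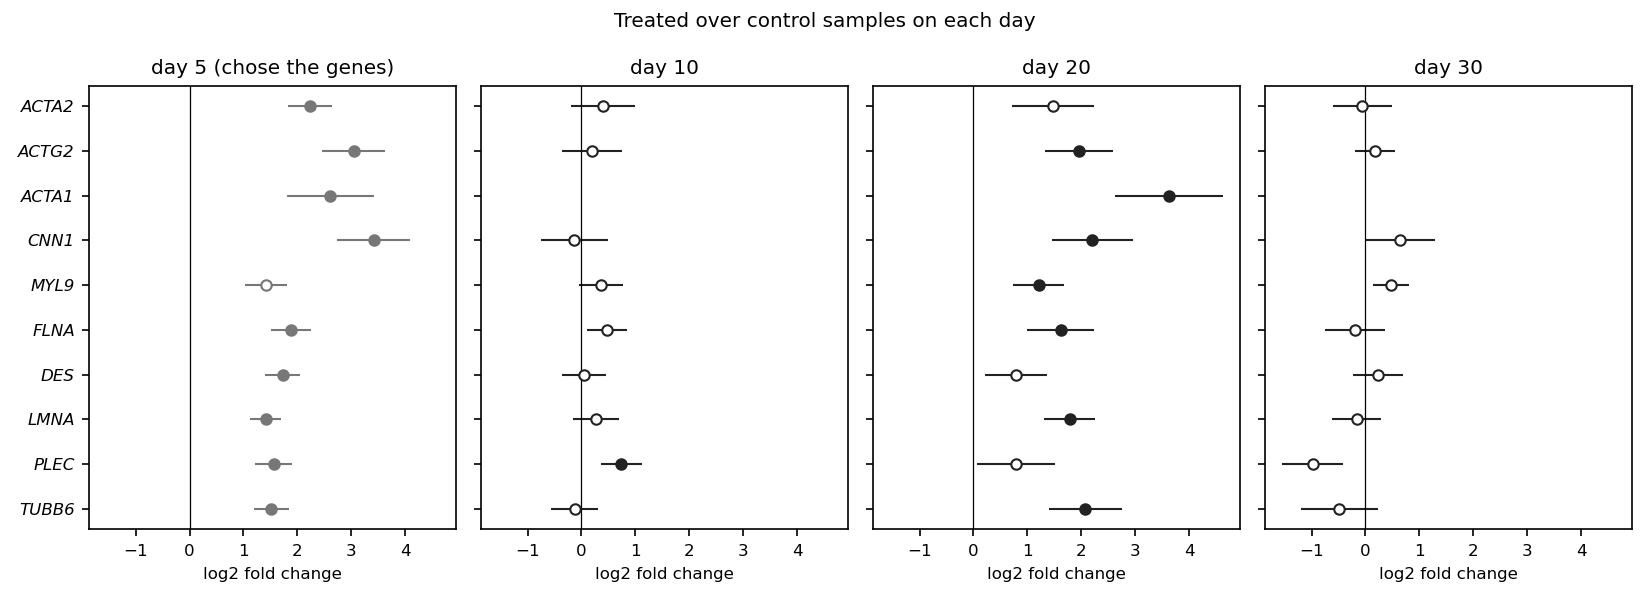
Log2 fold change of treated over control samples (x axis) for each gene on days 5, 10, 20 and 30. Bars are 1 standard error, derived from the F statistic of the edgeR fit of that day. Filled points mark genes with every treated sample above every control, which are 9, 1, 7 and 0 genes on the respective days. Over all genes tested the shares were 5.16%, 2.08%, 16.1% and 5.77%. The 7 of day 20 include ACTA1, which met the read minimum through its treated samples alone, and without it 6 of 9 remain. Grey marks day 5, which chose the genes, and ACTA1 has no point on days 10 and 30.

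On day 30 no gene passed with edgeR, as for 0% of all 13196 genes, and no gene reached an unadjusted P under 0.05, where 5.52% of all genes were higher and 2.62% lower. The median of the 9 genes tested was -0.06, against 0.05 over all genes. DESeq2 called none, against 0.394% of all genes higher and 0.485% lower, and no gene had its treated samples all above (5.77% of all genes) the controls. PLEC stood at 33.1, 22.5 and 14.3 CPM in treated replicates 2, 4 and 5 and at 97.2, 25.6 and 26.1 CPM in control replicates 2, 3 and 4, and the groups overlapped (-0.98, SE 0.57, FDR 0.689). CNN1 stood at 4.14, 6.63 and 1.62 CPM against 4.02, 1.19 and 3.30 CPM (0.65, SE 0.63). MYL9 stood at 299, 372 and 206 CPM against 328, 167 and 189 CPM (0.47, SE 0.33). The other genes tested differed by less than their standard error. Control replicate 2 was the highest control for all 10 genes, and treated replicate 5 was the lowest treated sample for all 10. ACTA1 was not tested, with 8 reads in treated and 6 reads in control samples summed.

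Whether the treatment difference itself varied between days was tested over the 18 samples of days 10, 20 and 30. No gene passed for day 20 against day 10, where 0.0286% of 13973 genes did, and none for day 20 against day 30 or day 30 against day 10, where 0% did. ACTA1 met the read minimum of this fit through the treated samples of day 20 alone and is left out of the counts that follow. At an unadjusted P under 0.05, 4 of the other 9 genes had a larger difference on day 20 than on day 10 (ACTG2, CNN1, LMNA and TUBB6), against 9.05% of all genes. Against day 30 there were 4 as well, with FLNA in place of CNN1, where 8.01% of all genes had a larger difference on day 20. For day 30 against day 10 none did, where 2.25% of all genes had a larger difference on day 30. LMNA differed by 1.98 (SE 0.65, edgeR FDR 0.276) between days 20 and 30, and TUBB6 by 2.57 (SE 0.95, FDR 0.306). The comparisons with day 10 and with day 30 share the day 20 samples. DESeq2 called none of the 9, where it called 5.35% of all genes for day 20 against day 10, 3.54% for day 20 against day 30 and 0% for day 30 against day 10.

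The change with age of the CL was compared in each arm as days 20 and 30 (6 samples) over day 10 (3 samples). In controls DES fell: it stood at 37.1, 61.1 and 33.8 CPM on day 10 and at 8.65 to 20.2 CPM on days 20 and 30, with no overlap, a pattern that 6.18% of all genes showed. The log2 fold change was -1.82 (SE 0.31, edgeR P 9.34e-05, FDR 0.0165). DES was the 1 gene of the 9 tested to pass, and 6.13% of all 13557 genes passed in the lower direction and 10.8% in either. At an unadjusted P under 0.05, 3 genes were lower (ACTG2, CNN1 and DES), against 14.5% of all genes. ACTG2 had 104, 39.2 and 25 CPM on day 10 and 16.1 to 33.7 CPM later (-1.17, SE 0.40, FDR 0.102), and CNN1 14.1, 8.44 and 2.88 CPM and later 0.721 to 5.42 CPM (-1.59, SE 0.59, FDR 0.125). ACTA2 gave -0.94 (SE 0.51), TUBB6 -1.19 (SE 0.64), LMNA -0.57 (SE 0.39) and FLNA -0.48 (SE 0.45), and none of these passed. PLEC was slightly higher later (0.38, SE 0.52) and MYL9 was nearly unchanged (-0.02, SE 0.31), both by less than their standard error. The median was -0.94 against 0.00 over all genes. DESeq2 called ACTG2 and DES, against 7.6% of all genes lower. Without control replicate 2 of day 10, ACTG2 was at -0.33, CNN1 at -0.97 and ACTA2 at -0.34. When control replicate 2 of day 30 was left out, LMNA and TUBB6 passed as well (-0.92 and -1.88). The summed pericyte markers MCAM and RGS5 (2 of 7 listed) were 189 to 268 CPM on day 10 and 311 to 457 CPM in the later controls. The other marker sets overlapped between these ages. For the smooth muscle markers TAGLN and MYH11 the sums were 90.9 to 274 CPM on day 10 and 113 to 217 CPM later. The part of any marker set in the result was not tested.

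In treated samples none of the 10 genes passed, where 0.123% of all 13836 genes did. DES stood at 62.9, 44.2 and 29.3 CPM on day 10 and at 7.24 to 31.0 CPM later, an overlap (-1.33, SE 0.49, edgeR P 0.0204, FDR 0.705). It was the 1 gene with an unadjusted P under 0.05, against 3.27% of genes lower. MYL9 gave 0.47 (SE 0.40). ACTA1 (1.36, SE 0.92) met the read minimum through day 20 alone, and the median over the other 9 genes was -0.14, against 0.05 over all genes. The arms use different dogs, and the difference between the arms' changes with age was not tested.

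The 10 genes also varied together among samples of the same group. After the mean of each group was subtracted, the correlation of log2 CPM over all 26 samples ran from 0.06 to 0.87 in the 45 pairs, with a median of 0.62, and 27 pairs were above 0.5. ACTG2 with CNN1, FLNA with PLEC and MYL9 with FLNA each had 0.87, and ACTA1 with TUBB6 had 0.06. The genes of a sample share its scaling factor and the composition of its tissue piece, so these correlations are descriptions and carry no P-value. Pairs of other genes were not correlated for comparison. The 26 samples include those of day 5, whose values chose the 10 genes. The plot of deviations shows the members moving together: day 20 treated replicate 2 was above its group mean for all 10 genes, and day 30 treated replicate 5 for none.

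**Figure D3:**
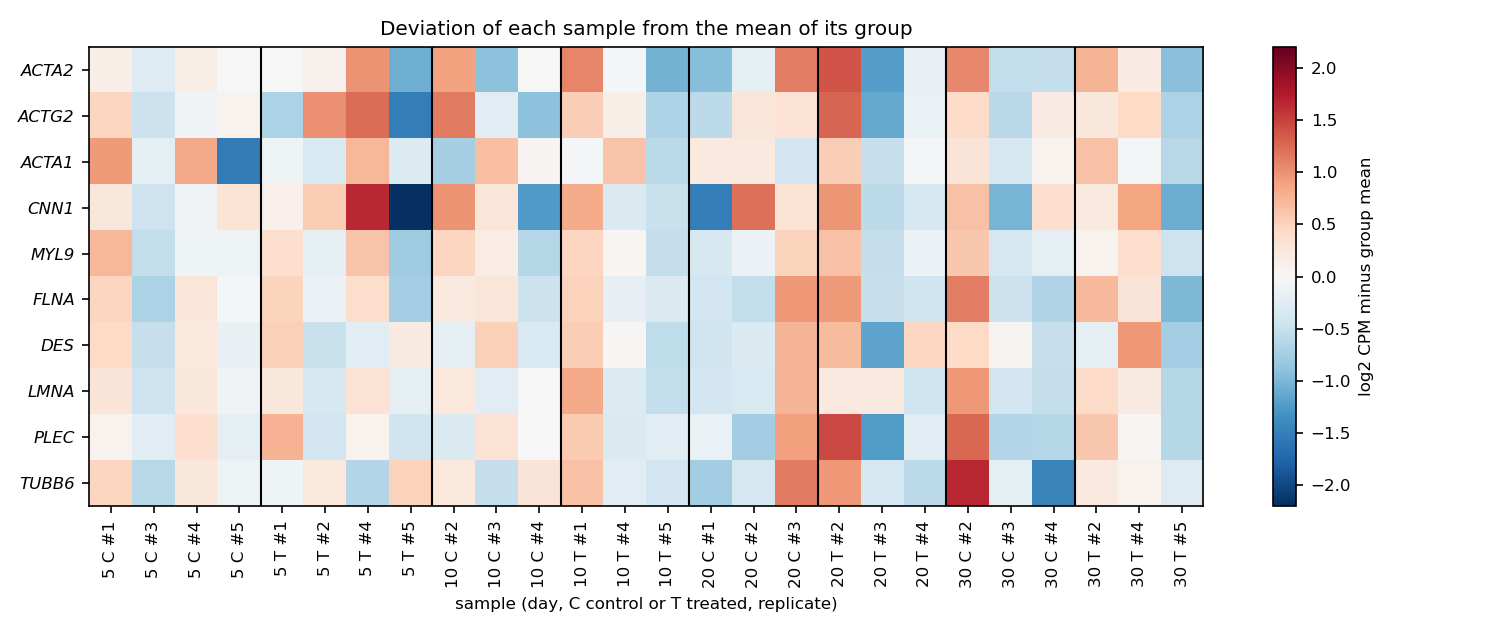
Log2 CPM of each gene in each sample minus the mean of its group (colour, red above and blue below), by day, treatment and replicate. Treated replicate 2 of day 20 and control replicate 2 of day 30 are red for all 10 genes, and treated replicate 5 of day 30 is blue for all 10.

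The gene whose within-group deviations were most like the mean profile of the 10 was CSRP1, a LIM protein of the smooth muscle cytoskeleton, with a Pearson correlation of 0.97 and a Spearman correlation of 0.97 over 26 samples. It was followed by MRGPRF, a receptor-like gene (0.90), SERPINH1, the collagen chaperone (0.89), BGN, the matrix proteoglycan biglycan (0.89), RCN3 (0.88) and EHD2, a protein of caveolae (0.87). The candidates were 4326 genes with a symbol, and the median r over 14161 genes was 0.06. The 26 samples again include those of day 5, whose values chose the 10 genes. With Spearman's correlation CSRP1 and MRGPRF stayed at ranks 1 and 2, while SERPINH1 moved to rank 35. CSRP1 had 503, 169 and 216 CPM in treated replicates 2, 3 and 4 of day 20 against 70.5, 89.9 and 188 CPM in controls.

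Other genes of the same systems were read from lists, of which part had a usable identifier because symbols were taken from the genes the study called in at least 1 contrast. They were therefore chosen partly on these samples, and the counts are not independent evidence of a direction. No listed gene passed with edgeR for treated over control on days 10, 20 or 30. DESeq2 at the same thresholds called none on days 10 and 30, but it called some on day 20. Higher were 4 of 11 smooth muscle, 2 of 7 lamina, 3 of 5 tested microtubule and 1 of 8 nonmuscle actin genes. Lower were 1 of these microtubule and 1 of these nonmuscle actin genes, and 0 of 4 intermediate filament and plakin genes were called. Over all genes it called 7.15% higher and 3.63% lower on that day. Of the smooth muscle contractile genes, 11 of 20 were read. On day 20, 6 of the 11 were higher at an unadjusted P under 0.05, against 11.7% of all genes. Their median log2 fold change was 1.13 against 0.11 over all genes. The values over all genes also cover genes that the study did not call, so the comparison is not like for like. CNN2, a broadly expressed calponin, gave 1.82 (FDR 0.187), TAGLN, an actin-binding protein of smooth muscle, 2.12 (FDR 0.200) and MYH11, the smooth muscle myosin heavy chain, 1.29 (FDR 0.212). TAGLN lay at 90.6 to 338 CPM in treated and 17.4 to 72.9 CPM in control samples. On day 10 none of the 11 and on day 30 only TPM2, a tropomyosin (1.58, FDR 0.599), reached that P. Over all genes, 0.373% were higher and 0.529% lower on day 10, and 5.52% were higher and 2.62% lower on day 30.

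The listed genes that follow were higher or lower at an unadjusted P under 0.05. Over all genes, 11.7% were higher and 5.33% lower on day 20, and 5.52% were higher and 2.62% lower on day 30. These shares too cover genes that the study did not call. Of 8 nonmuscle actin genes read of 22, ACTN1, an actinin, was higher (1.23) and RDX, which ties actin to the membrane, lower (-2.34) on day 20, and MSN was lower on day 30 (-0.57). Of 7 lamina genes read of 12, LMNB2, a B-type lamin (1.97, FDR 0.168), and SYNE3 (1.76, FDR 0.186) were higher on day 20, and none on days 10 or 30. Of 6 microtubule genes read of 14, TUBB2A (1.99), STMN1, which depolymerises microtubules (1.71), and TUBB (1.46) were higher and MAP1B lower (-1.92) on day 20. Of 4 intermediate filament and plakin genes read of 11, none reached P 0.05 on days 10 and 20, while NES was lower (-0.93) and DST higher (0.86) on day 30. Of 3 sarcomere genes read of 18, MYL2, a myosin light chain of heart and slow muscle, was at 1.34 to 2.50 CPM in treated and at most 0.0609 CPM in control samples on day 20. On days 10, 20 and 30 it met the read minimum only through the group where it was higher, so its tests are not read, and it was near the detection limit throughout.

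With age in controls, where DES fell, some listed genes passed with edgeR, and they are named here after their values were seen. Of the smooth muscle genes CNN2 fell (-1.84, FDR 0.0285). Of the filament and linker genes NES, the intermediate filament nestin (1.27, FDR 0.0569), and MACF1, a plakin that joins actin to microtubules (1.05, FDR 0.0367), rose. Of the microtubule genes TUBB2A (-1.68) and STMN1 (-0.95) fell and MAP1B rose (0.99). Of the nonmuscle actin genes EZR fell (-0.79) and MYH10 rose (1.03), and of the lamina genes BANF1 fell (-0.998) and SYNE2 rose (1.72). TUBB3, at 1.24 to 1.64 CPM on day 10 and 0 to 0.579 CPM later, and MYL2, at 0.502 to 2.09 CPM and later 0 to 0.124 CPM, met the read minimum through day 10 alone, so their tests are not read. In treated samples with age no listed gene passed.

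Markers of other cell types were read on the same scale. On day 20 the summed TAGLN and MYH11, the smooth muscle markers that are not among the 10 genes, were 303 to 634 CPM in treated and 113 to 198.3 CPM in control samples. The summed 8 fibroblast markers (8 of 8 listed) were 9894 to 13906 CPM against 2909 to 7294 CPM, and the 5 oocyte markers (5 of 5) 148 to 258 CPM against 4.57 to 9.14 CPM. Immediate-early genes, which respond to handling of tissue (9 of 12), were 2116 to 7331 CPM against 151 to 1002 CPM. LHCGR and PRLR, receptors of luteal cells (2 of 6), were 112 to 245 CPM against 308 to 508 CPM, and granulosa markers (2 of 5) 283 to 807 CPM against 1736 to 2482 CPM. In each of these sets the treated and control ranges did not overlap on day 20, and their part in the result for the 10 genes was not tested. Among all genes tested, 16.1% had every treated sample above every control on that day and 14.2% had every treated sample below. Up to 3 of the 5 oocyte markers were at 0 in a control sample of that day. The endothelial sum (5 of 8) overlapped, at 490 to 1395 CPM against 1007 to 1264 CPM. The pericyte sum did not overlap, at 60.7 to 350 CPM against 351 to 365 CPM, though its nearest values were almost equal. The leukocyte marker (1 of 6) overlapped, at 1.82 to 7.03 CPM against 0.305 to 2.16 CPM. The erythrocyte marker (1 of 2) did not, at 1.24 to 8.55 CPM against 0.120 to 0.211 CPM. The part of these sets was not tested either. On day 5 the smooth muscle sum was 256 to 1766 CPM in treated and 170 to 317 CPM in control samples. Within groups, the profile of the 10 genes correlated with the smooth muscle sum at 0.75, with the fibroblast sum at 0.48, with LHCGR and PRLR at -0.77, with the immediate-early genes at 0.28 and with the oocyte markers at -0.03 over 26 samples. It was 0.29 for the endothelial, 0.18 for the pericyte and 0.15 for the granulosa sum, 0.33 for the leukocyte and -0.15 for the erythrocyte marker. These correlations too include the samples of day 5, whose values chose the 10 genes. No theca (0 of 2) or surface epithelium marker (0 of 4) had an identifier.

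**Figure D4:**
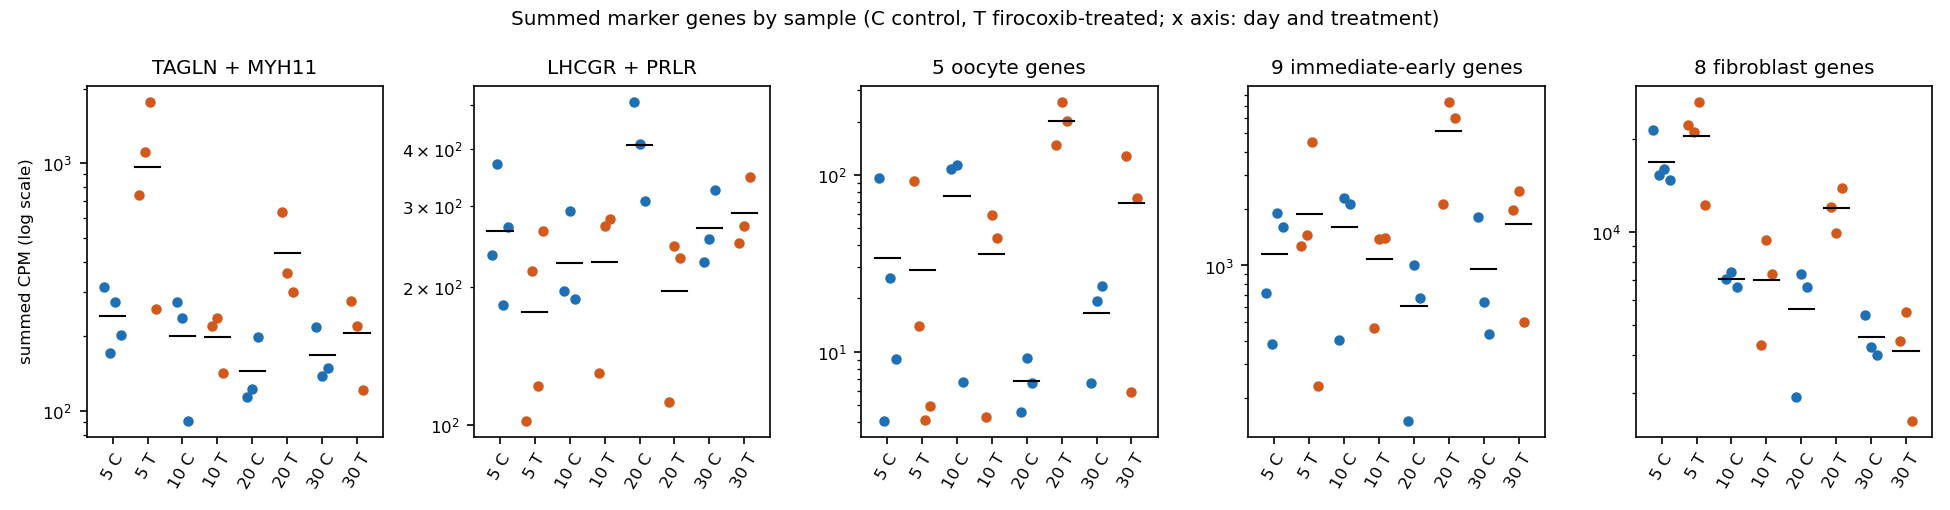
Summed CPM (log axis) of 5 sets of marker genes in each sample by day and treatment, with controls (C) blue, treated samples (T) orange and black lines for group means. On day 20 the treated samples lie above all controls in every set but the summed LHCGR and PRLR, where they lie below.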

How the data were processed

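The CL libraries were poly(A)-selected, and per the labels and the study's methods STAR aligned the reads to the CanFam3.1 build and featureCounts assigned them to genes; versions are not given in the sources used here. The deposited values are raw read counts per Ensembl gene, 1 file per sample, made by the authors with no normalization. The kit does not mark strand, so antisense transcripts cannot be told apart from the genes. Symbols came from the study's gene lists (4339 genes), which hold only genes the study called. The members and lists were chosen with earlier results of these data known.

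Genes averaging 10 or more reads in any group of a comparison entered edgeR 4.0.16 (R 4.3.3), a quasi-likelihood test with TMM factors, fitted on the samples of that comparison, with Benjamini-Hochberg FDR over all genes tested. Named genes were the 10 members, at most 3 genes per list with the smallest unadjusted P under 0.05 in each comparison of days 10, 20 and 30, and the 6 genes most like the mean member profile. Genes named beyond that rule (TUBB and the listed genes that passed with age in controls) were chosen after their values were seen. Log2 CPM for correlations used a prior count of 2. Standard errors of edgeR fold changes were derived as the absolute log2 fold change divided by the square root of the test's F statistic. Alternatives were DESeq2 1.42.0, limma 3.58.1 with voom, RLE factors, other filters, 1 fit of all samples, a replicate block and each sample left out. The edgeR script was tested on simulated data. Replicate numbers are of different dogs and pair no samples. The 30 pairs of samples within groups all differed beyond sampling noise (chi-square per degree of freedom at least 46.6). The study's fold changes and P-values were not used. Some listed genes are not reported here.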

Additional observations from a re-analysis of the deposited data

Results flagged for a closer look

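Of 40 sets of 4 to 6 samples (each member in the day 5 control and treated groups and in the pooled days 20 and 30 of each arm), 9 held a sample farther from the rest than Dixon's 95% critical value allows. Chance gives about 1 in 20 where all samples of a set vary alike and values are normally distributed, but CPM was used without logs. The members share samples and vary together, so the 40 sets are not independent and the 9 cannot be set against that rate. The 20 sets of day 5 hold the values that chose the genes, and 1 of the 9 is among them. The other 8 are in sets that pool days 20 and 30, whose treated means differ (71.5 and 27.5 CPM for ACTA2, 96.0 and 27.5 CPM for ACTG2), so a sample far from the others and a difference between these days cannot be told apart there. In 6 of the 9 the sample was treated replicate 2 of day 20. It had 142 CPM of ACTA2 where the nearest treated sample had 48.6 CPM, 185 CPM of ACTG2 where the nearest had 68.8 CPM, and 23.7 CPM of CNN1 where the nearest had 9.16 CPM. It also had 538 CPM of FLNA (nearest 208 CPM), 89.0 CPM of PLEC (nearest 33.1 CPM) and 29.0 CPM of TUBB6 (nearest 11.4 CPM). Control replicate 2 of day 30 had 97.2 CPM of PLEC (nearest 42.2 CPM) and 18.7 CPM of TUBB6 (nearest 7.53 CPM). Treated replicate 4 of day 5 had 2.91 CPM of ACTA1 (nearest 1.57 CPM).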

How the results depend on the processing

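With DESeq2, and also with all 26 samples in 1 fit, 5 members passed on day 20 in place of 0. Both fits included ACTA1, which met the read minimum through its treated samples alone, so that 4 remain. Leaving out each replicate gave 0 to 1. Over all genes, DESeq2 called 7.15% higher on day 20, where edgeR called 0.102%. In controls with age these shares were 7.6% and 6.13% lower, and for day 20 against day 10 they were 5.35% and 0.0286%. For the other alternatives the share of all genes called was not counted, so their member counts have no background. On day 20 PLEC gave -0.26 without treated replicate 2, with a range of -0.26 to 1.42 over left-out replicates. For days 20 and 30 over day 10 in controls, 2 members passed with DESeq2 and 2 with day 5 controls added, in place of 1, and 1 to 3 with replicates left out: ACTG2 and DES without day 10 control replicate 4, and DES, LMNA and TUBB6 without day 30 control replicate 2. Adding day 5 controls was chosen after seeing the data and uses values that chose the genes, so it supports nothing. DES passed in all the other alternatives run. For the differences between days, DESeq2 and limma voom each called 1 member, ACTA1, in place of 0, and leaving out replicates gave 0 to 1 (ACTA1 without day 20 treated replicate 4), and the same limit of ACTA1 holds there. The cause of these changes was not tested. On days 10 and 30 and in treated samples with age, 0 members passed under every alternative run. Of 356 alternative values for the 25 member fold changes at least as large as their standard error, 339 kept direction and call and 1 reversed, and 63 of 64 reversals over all 47 fold changes were in those smaller than it. Replicate numbers mark different dogs. Same-numbered samples had mean correlations of their deviations of -0.40 on day 20, -0.08 on day 30, -0.02 in controls with age and 0.18 in treated samples with age. With the replicate block, 0 members passed on days 20 and 30, in treated samples with age and between days, and 1 in controls with age (DES, FDR 0.0612), and the day 5 median was 1.70. On day 10 the block could not be fitted. The day 5 median ran from 1.64 to 1.99 with a replicate left out. With 3 samples per group on days 10 to 30, moderate differences can miss the thresholds, and ACTA1 rests on few reads.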
